A study of Mus musculus with 7 samples.

Results

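Small nuclear RNAs (snRNAs), small nucleolar RNAs (snoRNAs) and small Cajal body-specific RNAs (scaRNAs) are short noncoding RNAs that work inside ribonucleoprotein particles. U1, U2 and U5 belong to the spliceosome, U11 and U12 to the minor spliceosome and U7 to histone mRNA processing, whereas box C/D and box H/ACA snoRNAs guide the methylation and pseudouridylation of other RNAs. They reach the cell by distinct routes. The snRNA genes and a few snoRNA genes (U3, U8, U13) have promoters of their own, with a proximal sequence element and often an octamer further upstream, and a 3′ box after the gene that directs formation of the RNA's end, except U6, which RNA polymerase III transcribes from a promoter with a TATA box and which has no 3′ box. Most snoRNAs are instead cut from introns of host genes, many of which encode ribosomal proteins or are noncoding snoRNA host genes.

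Occupancy at these genes was examined by CUT&Tag, in which an antibody brings a transposase to the DNA around a protein and the tagged fragments are sequenced. The cells were hi-77-/- fetal liver hematopoietic progenitors, immortalized with Hoxb8 and homozygous for loss of the distal Gata2 enhancer that gives them their name, a background that all groups shared. They were infected with retrovirus expressing HA-tagged GATA2 (labelled WT) or 9aa-Ins, the HA-tagged mutant in which extra residues separate the zinc fingers, kept in medium with β-estradiol, and sorted for GFP. The age of the embryos was not given in the sources used here. Of 7 libraries in the labels, 4 used the anti-HA antibody, and their peaks were in 2 lists, 1 for GATA2 and 1 for 9aa-Ins, each merged from 2 libraries. The other 3 used an anti-GATA2 antibody and were not analysed here, nor was any library from cells without an HA-tagged protein. According to the study's methods, cells of a condition were pooled before the split into replicates. Each gene therefore had 1 value for each construct, with no replicates, no SD and no test. The protein was expressed from a virus, and RNA levels were not part of these data.

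The genes were those of GENCODE M21 (mm10) annotated as snRNA, snoRNA or scaRNA with a symbol that starts with Rnu, Snord, Snora or Scarna. There were 163 such genes under 171 gene identifiers, because 8 symbols had a second identifier at the same place. The 31 genes described here (37 identifiers) had a peak summit of either list within 1 kb, so they were chosen by the peaks themselves, and the presence of a peak at them is a description. Each of the 31 had a GATA2 summit, 17 also had a 9aa-Ins summit and 0 had a 9aa-Ins summit alone. GATA2 summits thus lay near 19.0% of the 163 genes, beside 10.7% of all 55450 annotated genes, and 9aa-Ins summits near 10.4%, beside 2.56% of all annotated genes. The genes nearest the limit on the inside were Snora3, Snora16a and Snora64, with the nearest GATA2 summit at 742, 802 and 824 bp, and those nearest on the outside by the same list were Snora17, Snord1c and Snord110, at 1069, 1087 and 1102 bp. By 9aa-Ins summits the nearest on the outside were Snord14a, Snord110 and Snora17, at 1034, 1045 and 1057 bp, the first of which was added after its values were seen.

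Values below are reads over the summit (the pileup), recovered from the fold enrichments that the authors' peak caller gave. The lowest pileup in either list was 9 reads, the median was 15 reads over 6254 GATA2 peaks and 13 reads over 1079 9aa-Ins peaks, and the background was 0.464 and 0.455 reads. The lists therefore stood on a similar background. Intervals are 95% intervals (exact Poisson for pileups, exact binomial for ratios of pileups, Wilson for shares). They cover counting error only and say nothing of the spread between cultures, and each pileup may hold the reads of 1 library or of both.

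The 31 genes fell into 3 groups by their surroundings in the annotation. The first was 8 genes that lie in no other gene on their strand: Rnu2-10 (U2), Rnu3a (U3), Rnu5g (U5), Rnu11 (U11), Rnu12 (U12), Snord118 (U8), Scarna17 and Snord104. The second was 6 genes of families with promoters of their own that nevertheless lie inside another gene: Rnu1a1 (U1) and the 4 U3 copies Rnu3b1, Rnu3b2, Rnu3b3 and Rnu3b4, all in introns of Tex14 on chromosome 11, and Rnu7 (U7), which overlaps an exon of Grcc10 on chromosome 6. The third was 17 snoRNA and scaRNA genes inside a host gene.

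The DNA around the genes with their own promoters is shown first, because the summits at these genes turned out to lie on the far side of the RNA. All sequences are from the reference genome (GRCm38, the assembly of mm10) and run 5′ to 3′ along the gene. The following 30 bases start 70 bases before the gene and hold the place of the proximal sequence element. Capitals mark ACCNT, letters picked after these sequences had been read and searched on the gene's own strand only.
Rnu1a1 (chr11:87422797-87422826, + strand): cttaaatatttACCGTaactatgaaatgct
Rnu2-10 (chr11:101658168-101658197, + strand): gagtgttggcgACCGTgagttgaaggtgtg
Rnu5g (chr9:65201882-65201911, − strand): aattgataaatcACCATcacttatctagga
Rnu12 (chr15:83149574-83149603, + strand): gatcggacactcACCATacttgtaatgaga
Rnu3a (chr10:40258397-40258426, + strand): tggggaatgtcACCATtagttaaaaatgtg
Rnu3b1 (chr11:87443167-87443196, + strand): gtgcgtcagtcgccgtgactaagatgtggg
Snord118 (chr11:69073357-69073386, + strand): acgtattctcACCCTtcctttaataggaaa
Snord13, no peak (chr8:31150008-31150037, − strand): gcatattagtcACCCTctttgaaaaactgg
In the genes shown with capitals the match began at positions −60 to −58, counted back from the first base of the RNA. Between 66 and 46 bases before the start, ACCNT was present in 8 of 12 genes of own-promoter families with a peak and in 5 of 6 without one, in 7.91% of the 139 host-gene snoRNA and scaRNA genes and in 4.51% of protein-coding gene starts. The 4 U3 copies in Tex14 were the members of these families with a peak that lacked it. The 2 U6 genes are counted among those without a peak, and without them ACCNT was present in 4 of 4. The letters were thus found in most genes of these families, with or without a peak.

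Further upstream, 6 of the 12 genes with a peak held the octamer ATGCAAAT or its reverse complement ATTTGCAT, the site of the POU factor OCT1, within 250 bases before to 50 after the start. It was present in 1 of 6 genes of these families without a peak (Snord13), in 1.57% of protein-coding gene starts and in 0 of 139 host-gene small RNA genes. Capitals mark it here, with 8 bases on either side.
Rnu2-10 (chr11:101657999-101658022, + strand): ggcggggcATGCAAATaaggacgc
Rnu5g (chr9:65202005-65202028, − strand): cgcggctaATGCAAATattttcgt
Rnu12 (chr15:83149430-83149453, + strand): cgcttctaATTTGCATggaggagt
Rnu11 (chr4:132270413-132270436, − strand): ctgctctgATTTGCATattgactc
Rnu7 (chr6:124741476-124741499, − strand): actgactcATTTGCATagccttta
Snord118 (chr11:69073171-69073194, + strand): gcggggatATGCAAATaactatct
The octamer began between positions −248 and −179. A TATA box (TATAAA or TATATA) between 40 and 15 bases before the start was found in 0 of 18 genes of these families (0 of 16 without U6) and in 3.41% of protein-coding gene starts. Rnu6 and Rnu6-ps2 thus had no match to these letters either, although U6 is transcribed from a promoter with a TATA box.

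The last set is the 45 bases that follow the gene, which hold the place of the 3′ box. Most summits past a gene lay further downstream than this window. Capitals mark AANNNAGA, again letters picked after reading these sequences and searched on the gene's own strand.
Rnu2-10 (chr11:101658429-101658473, + strand): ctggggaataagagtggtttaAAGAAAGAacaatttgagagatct
Rnu5g (chr9:65201681-65201725, − strand): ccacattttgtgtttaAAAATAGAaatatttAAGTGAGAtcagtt
Rnu3a (chr10:40258681-40258725, + strand): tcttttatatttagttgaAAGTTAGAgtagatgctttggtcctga
Rnu3b1 (chr11:87443453-87443497, + strand): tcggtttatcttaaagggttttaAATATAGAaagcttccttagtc
Rnu1a1 (chr11:87423031-87423075, + strand): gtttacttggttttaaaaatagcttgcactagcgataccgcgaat
These letters were present after 7 of 12 genes of own-promoter families with a peak, after 5 of 6 without one, after 1.44% of the 139 host-gene small RNA genes and after 17.4% of 2770 other annotated snRNA, snoRNA and scaRNA genes. Without the U6 genes, which lack a 3′ box, it was 3 of 4 of those without a peak. The U6 genes thus carried the letters too, so the letters alone do not mark a 3′ box. The 7 genes with a peak were Rnu2-10, Rnu5g, Rnu3a and the 4 U3 copies in Tex14, which are neighbours in 1 gene. The letters were absent after Rnu1a1, Rnu11, Rnu12, Rnu7 and Snord118, and after Snord13, which had no peak. As with ACCNT, the letters were found in genes of these families both with and without a peak.

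Genes outside other genes carried peaks more often than genes inside a host. Of 18 genes that lie in no other gene, 8 had a GATA2 summit (44.4%, 24.6 to 66.3%) and 7 a 9aa-Ins summit (38.9%, 20.3 to 61.4%). Of 145 genes inside another gene, 23 had a GATA2 summit (15.9%, 10.8 to 22.7%) and 10 a 9aa-Ins summit (6.90%, 3.79 to 12.2%). The difference was 28.6 percentage points (7.56 to 51.0) in the GATA2 list and 32.0 points (12.7 to 54.7) in the 9aa-Ins list. With hosts limited to protein-coding genes, it was 11.9 points for GATA2 and 8.24 points for 9aa-Ins, since noncoding snoRNA host genes then no longer count as hosts.

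Grouping by family rather than by position, a division made after the data had been seen, drew the groups further apart. Of 18 genes of families with their own promoters, 12 had a GATA2 summit (66.7%, 43.7 to 83.7%) and 11 a 9aa-Ins summit (61.1%, 38.6 to 79.7%). Without the U6 genes these were 12 of 16 (75%) and 11 of 16 (68.8%). Of 139 genes of other families inside a host, 17 had a GATA2 summit (12.2%, 7.78 to 18.7%) and 5 a 9aa-Ins summit (3.6%, 1.55 to 8.14%). All 6 own-promoter genes that lie inside another gene had a GATA2 peak, although by position they counted as genes inside a host.

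**Figure D1:**
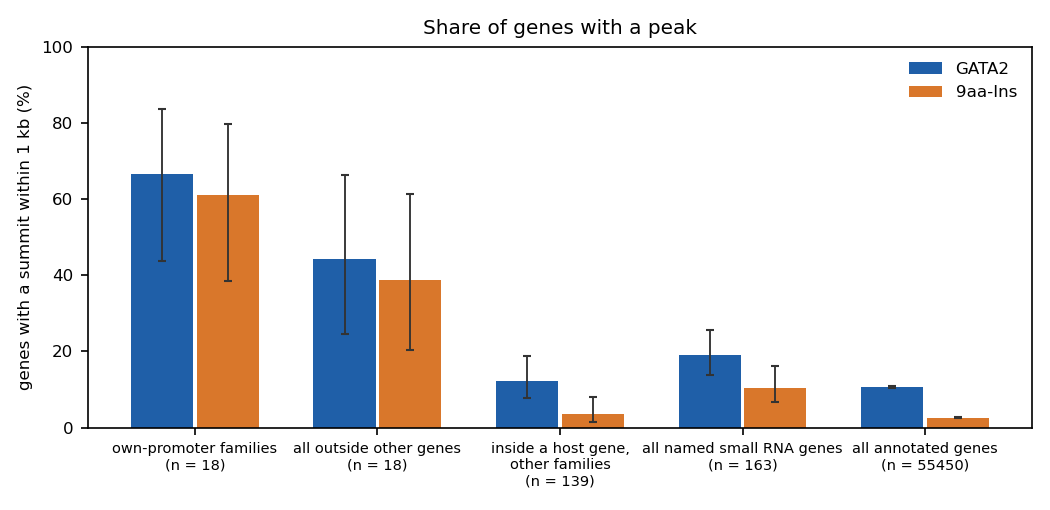
Percentage of genes with a summit within 1 kb (y axis, from 0 to 100) for GATA2 (blue) and 9aa-Ins (orange), in 5 sets of annotated genes; error bars are 95% Wilson intervals and n is the number of genes. The own-promoter families stand highest, at 66.7% and 61.1%, and the other families inside a host gene at 12.2% and 3.6%, beside 10.7% and 2.56% of all annotated genes.

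The own-promoter genes without a peak were Rnu1b1, Rnu1b2 and Rnu1b6 (U1), Rnu6 and Rnu6-ps2 (U6) and Snord13 (U13). Every 36-base word within 100 bp of the start of the 3 U1 genes was found elsewhere in the genome (100%), as were 81.3% of words at Rnu6. The share was 14.5% at Rnu6-ps2 and 0% at Snord13, whose nearest GATA2 summit was 472357 bp away. The part of repeated sequence in the absence of a peak was not tested, and the 4 Tex14 copies of U3 had peaks although their starts too were at 100%. The other genes outside other genes and without a peak were Scarna2, Snora17, Snora43 and Snora57.

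A 9aa-Ins summit accompanied the GATA2 summit at a larger share of these genes than of annotated genes in general. Of the 31 genes, 17 (54.8%, 37.8 to 70.8%) also had a 9aa-Ins summit, beside 22.4% of the 5952 annotated genes with a GATA2 summit within 1 kb. With the GATA2 list shortened to its 1079 peaks of lowest q, as many as in the 9aa-Ins list, the shares were 11 of 13 (84.6%) and 53.5% of 1187 annotated genes. Counted by peaks, 20 of their 36 distinct GATA2 peaks overlapped a 9aa-Ins peak (55.6%), beside 15.3% of all GATA2 peaks, and 19 of their 19 distinct 9aa-Ins peaks overlapped a GATA2 peak, beside 88% of all 9aa-Ins peaks. Higher GATA2 peaks overlapped the other list more often. In the range of the highest pileups of the 8 genes outside other genes (16 to 92 reads), 6 of their 9 peaks overlapped a 9aa-Ins peak (66.7%, 35.4 to 87.9%), beside 27.0% of all GATA2 peaks. In that of the 6 own-promoter genes inside a gene (28 to 72 reads), 5 of 6 did (83.3%, 43.6 to 97%), beside 47.8%, a share that the interval included. With all their distinct peaks counted, 7 of 10 overlapped a 9aa-Ins peak outside other genes, beside 17.9% of all GATA2 peaks of 12 to 92 reads, and 9 of 11 at own-promoter genes inside a gene, beside 15.5% of those of 10 to 72 reads. Of the 15 distinct GATA2 peaks of the members inside a host, 4 overlapped a 9aa-Ins peak (26.7%, 10.9 to 52.0%), beside 13.2% of all GATA2 peaks in their range.

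**Figure D2:**
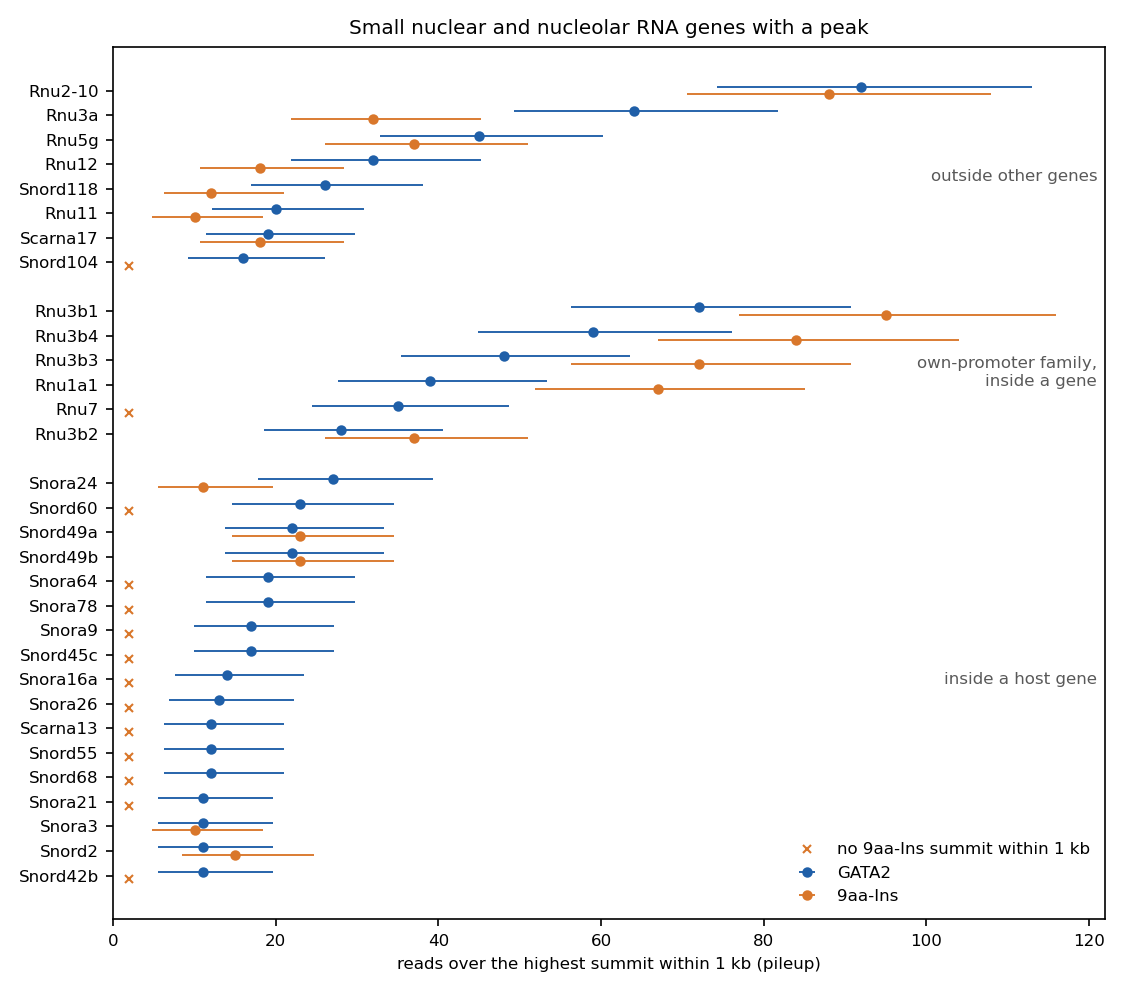
Reads over the highest summit within 1 kb (x axis) for each of the 31 genes (y axis, in 3 groups), for GATA2 (blue) and 9aa-Ins (orange); bars are 95% exact Poisson intervals and a cross marks a gene with no 9aa-Ins summit within 1 kb. In the genes outside other genes the 9aa-Ins value is the lower one, and in the U1 and U3 genes inside Tex14 it is the higher one.

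Among the spliceosomal genes outside other genes, U2 was the highest. At Rnu2-10 (chromosome 11) the pileup was 92 reads with GATA2 and 88 with 9aa-Ins, the ratio was 0.957 (0.706 to 1.30), and the GATA2 peak ranked at percentile 99.9 of its list. At Rnu5g (chromosome 9), which pairs with both exons during splicing as part of U5, the pileups were 45 and 37 reads, a ratio of 0.822 (0.517 to 1.30). Both intervals included equal pileups. The minor spliceosomal genes were lower with 9aa-Ins, with 32 and 18 reads at Rnu12 (chromosome 15; ratio 0.562, 0.297 to 1.03) and 20 and 10 reads at Rnu11 (chromosome 4; ratio 0.5, 0.209 to 1.12). These intervals also reached equality, so the differences were within counting error at this depth. The highest summits of Rnu11 lay in different peaks, on either side of the gene, and where its peaks overlapped the pileups were 12 and 10 reads. Rnu5g lay within Parp16 and Rnu11 within Gm28872 on the opposite strand, and the peaks carry no strand.

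The snoRNA genes with their own promoters outside other genes were lower with 9aa-Ins beyond counting error. Rnu3a (chromosome 10) encodes U3, the box C/D snoRNA that takes part in cleavage of the ribosomal RNA precursor. Its pileup was 64 reads with GATA2 and 32 with 9aa-Ins, a ratio of 0.5 (0.316 to 0.776). Snord118 (chromosome 11) encodes U8, which takes part in the maturation of the large subunit ribosomal RNAs. Its pileup was 26 reads with GATA2 and 12 with 9aa-Ins, a ratio of 0.462 (0.212 to 0.948). Both intervals lay below equality, but they included 0.684, the median fold ratio of all peaks found in both lists. The fold ratios of Rnu3a and Snord118 stood at percentiles 21 and 16.1 of those shared peaks. Scarna17 (chromosome 18), a scaRNA gene, had 19 and 18 reads (ratio 0.947, 0.469 to 1.91). Snord104 (chromosome 11), a box C/D gene, had 16 reads with GATA2 and no 9aa-Ins summit within 1 kb, which in a list whose lowest pileup was 9 reads does not show that no reads were there.

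The U1 and U3 genes inside Tex14 went the other way. Tex14, a gene known for intercellular bridges of germ cells, spans 151 kb on chromosome 11 (87405065 to 87555823), and its 5 small RNA genes lay between 4724 and 43777 bp from its nearest annotated start. At Rnu1a1 the pileup was 39 reads with GATA2 and 67 with 9aa-Ins, a ratio of 1.72 (1.14 to 2.62). At Rnu3b3 it was 48 and 72 reads (ratio 1.5, 1.03 to 2.21), and at Rnu3b4 59 and 84 reads (ratio 1.42, 1.01 to 2.02). In these 3 genes the interval lay above equality. At Rnu3b1 the pileups were 72 and 95 reads (ratio 1.32, 0.961 to 1.82) and at Rnu3b2 28 and 37 reads (ratio 1.32, 0.787 to 2.24), where the interval included it. The highest GATA2 summit of Rnu3b2 lay before the gene and its highest 9aa-Ins summit after it, and at the latter place the pileups were 27 and 37 reads.

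Fold enrichment put these genes against all peaks found in both lists. The 9aa-Ins value was the higher one in 5 of 5 genes inside Tex14, in 0 of 7 genes outside other genes and in 3 of 5 genes inside a host, beside 17% of the 958 GATA2 peaks shared by the lists. The fold ratio of 9aa-Ins to GATA2 had a median of 0.963 over the 17 genes with both and of 0.684 over all shared peaks. The genes inside Tex14 stood between percentiles 93.2 and 97.5 of the shared peaks. Counting each distinct GATA2 peak once, 7 of 9 shared peaks at these genes were higher with 9aa-Ins, with a median ratio of 1.43. A pair of them, both at Rnu3b2, overlapped the same 9aa-Ins peak, and with each 9aa-Ins peak set once against its highest GATA2 peak it was 6 of 8 (median ratio 1.4), beside 15.2% of 936 over all shared peaks. The 9 peaks had GATA2 pileups of 15 to 72 reads, and among the 791 shared peaks of that range that were near none of the 31 genes, 8.98% were higher with 9aa-Ins and the median ratio was 0.64. Between 28 and 72 reads, the range of the highest peaks of the 5 genes, 4 of their 5 shared peaks were higher with 9aa-Ins, beside 13.8% of 247 shared peaks near none of the 31 genes. A higher 9aa-Ins value was not particular to these genes, since 154 of all 938 shared peaks near none of the 31 genes had it (16.4%). Some of these followed one another along the genome, with GATA2 and 9aa-Ins fold enrichments such as 49.9 and 91.4 or 53.3 and 83.8. Rnu3a, the U3 copy outside Tex14, stood at percentile 21 of the shared peaks.

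**Figure D3:**
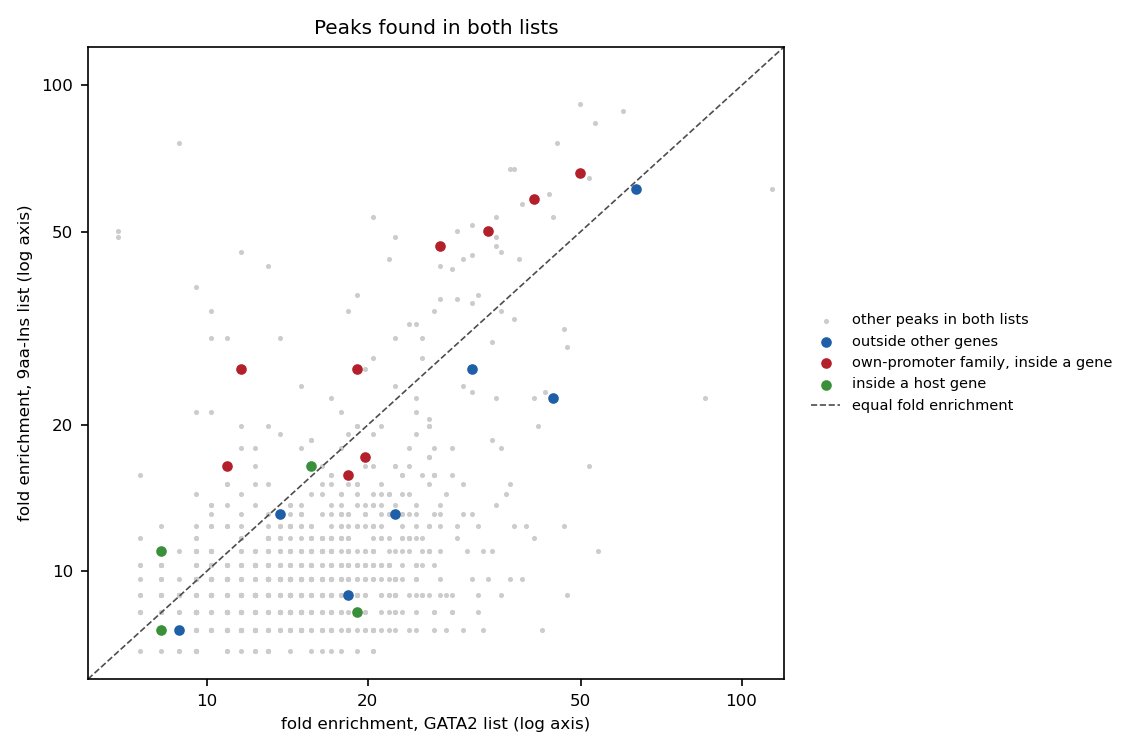
Fold enrichment of each GATA2 peak that overlaps a 9aa-Ins peak (x axis, log) against that of the 9aa-Ins peak (y axis, log), with the dashed line at equal values; grey points are peaks near none of the 31 genes and green points are peaks of genes inside a host. Of the red points (U1 and U3 genes inside Tex14), 7 of 9 lie above the line, whereas 0 of 7 blue points (genes outside other genes) do.

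The Tex14 gene held 13 GATA2 peaks and 9 9aa-Ins peaks, of which 10 and 8 lay within 1 kb of one of its 5 small RNA genes. The strongest of the rest was at Gm22068, an annotated snRNA gene that the symbol rule leaves out and whose sequence was identical to Rnu1a1 (100% of bases). Its pileup was 63 reads (48.4 to 80.6) with GATA2 and 86 reads (68.8 to 106) with 9aa-Ins, and these intervals overlap. Around its summits 27.1% and 41.6% of words were repeated elsewhere. Similar copies lie close together here. The 4 Tex14 copies of U3 were 100% identical over the first 213 bases of the gene and over the 250 bases before it, whereas the sequence further than 45 bases past the gene matched Rnu3b1 at only 25.5 to 30.6% of bases. Of the 10 GATA2 peaks at the 5 genes, 5 had more than 20% of their words repeated elsewhere, as had 5 of the 8 9aa-Ins peaks. Around the highest summits of GATA2 and 9aa-Ins the share of repeated words was 0% and 28.3% at Rnu1a1, 0% and 17.5% at Rnu3b1, 38% and 22.9% at Rnu3b2 and 14.5% in both lists at Rnu3b4. At Rnu3b3 alone both stood at 0%. Of the peaks near the 5 genes, those with 0% repeated words were 4 with GATA2 (169 reads in all) and 1 with 9aa-Ins (72 reads), and the part of repeated sequence in the ratios was not tested. The 4 U3 copies and Rnu1a1 are thus neighbours in 1 gene and not independent loci.

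**Figure D4:**
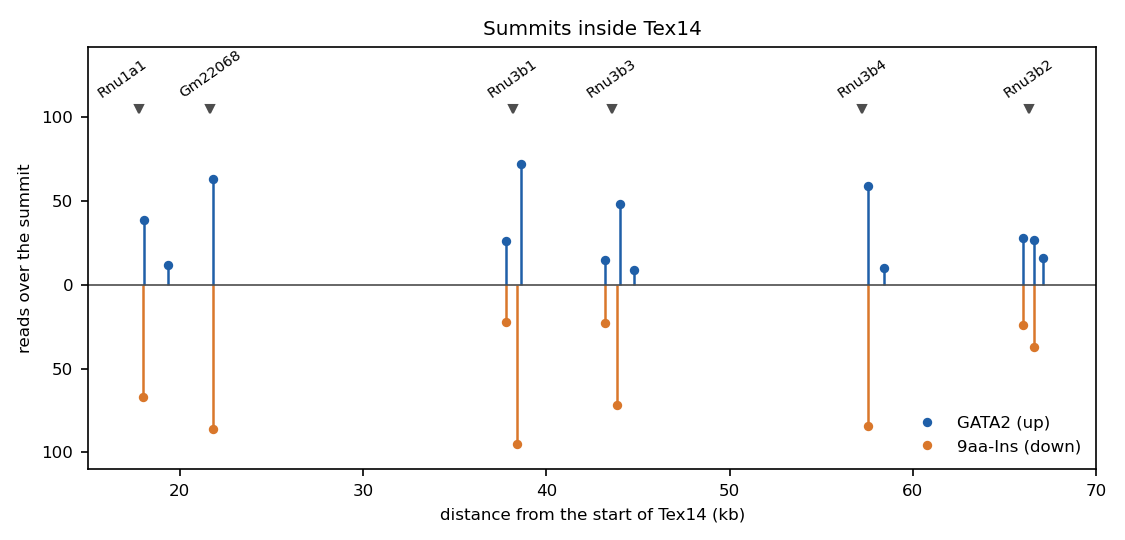
Reads over each summit inside Tex14 for GATA2 (upward, blue) and 9aa-Ins (downward, orange), against the distance from the start of Tex14 in kb; triangles mark the small RNA genes. The tallest summit of each list stands at Rnu3b1, with 72 and 95 reads, and the summits follow the small RNA genes one by one.

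Rnu7 was the exception among own-promoter genes. U7 RNA guides the 3′ end cleavage of replication-dependent histone mRNAs. Its GATA2 pileup was 35 reads (24.4 to 48.7), at percentile 96.1 of the list, and the nearest 9aa-Ins summit was 78374 bp away. The GATA2 summit lay 306 bp past the end of Rnu7 and 146 bp after an annotated start of Grcc10 or Gm45234, the genes that contain it, so the peak cannot be assigned to one of them.

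The groups also differed in where the summits lay. At the own-promoter genes the highest GATA2 summit lay past the end of the RNA gene in 10 of 12, by 41 to 306 bp (median 140 bp), and the highest 9aa-Ins summit in 10 of 11, by 21 to 169 bp (median 84.5 bp). In 10 of the 12 the GATA2 summit was thus more than 150 bp past the gene start, which held for 24.4% of 3496 protein-coding starts with a GATA2 summit within 1 kb. For 9aa-Ins it was 10 of 11, beside 27.8% of 878 protein-coding starts. The exceptions were Rnu12 (GATA2 summit 187 bp before the start, 9aa-Ins summit 258 bp after it), Rnu11 (9aa-Ins summit 217 bp before the start, GATA2 summit 371 bp after it) and the GATA2 summit of Rnu3b2.

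Around the start of the 4 Tex14 copies of U3, 100% of words were repeated elsewhere in the genome. At the other genes with a summit past the end the share was 64.5% for Rnu2-10, 44.6% for Rnu1a1, 41% for Rnu5g, 39.2% for Rnu12, 9.04% for both Rnu3a and Snord118, 6.63% for Rnu11 and 1.2% for Rnu7. The part of repeated sequence in the position of the summits was not tested. At Rnu3a a second, smaller GATA2 summit of 16 reads lay 369 bp before the start. Of the 4 Tex14 copies of U3, 3 had such an upstream summit too, with GATA2 summits 366, 374 and 324 bp before Rnu3b1, Rnu3b3 and Rnu3b2 (26, 15 and 28 reads) and 9aa-Ins summits 359, 363 and 313 bp before them (22, 23 and 24 reads). Around these GATA2 summits 53%, 51.8% and 38% of words were repeated elsewhere, beside 0% at the upstream summit of Rnu3a. For the 9aa-Ins summits the shares were 48.8%, 51.2% and 44.6%.

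**Figure D5:**
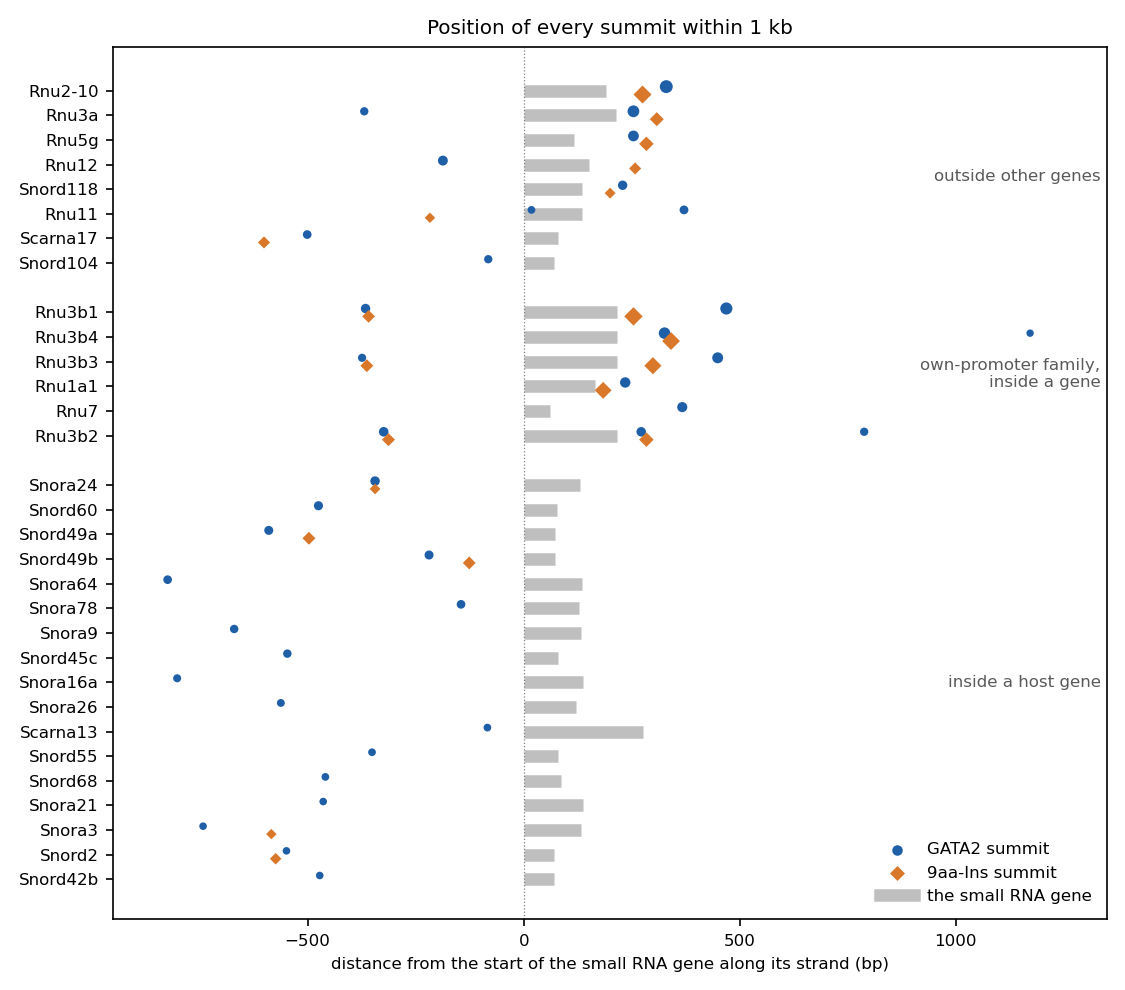
Distance of every summit within 1 kb from the start of the small RNA gene, in bp along its strand (x axis), for GATA2 (blue circles) and 9aa-Ins (orange diamonds), with larger symbols for more reads and a grey bar for the gene. Summits of the own-promoter genes lie mostly past the grey bar, and all summits of the genes inside a host lie before it.

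The DNA under these summits is shown for 3 genes, as 61 bases centred on the summit and read on the + strand of the genome.
Rnu2-10, GATA2 (chr11:101658538-101658598): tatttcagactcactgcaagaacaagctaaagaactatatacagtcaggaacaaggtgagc
Rnu2-10, 9aa-Ins (chr11:101658483-101658543): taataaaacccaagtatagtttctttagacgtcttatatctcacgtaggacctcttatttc
Rnu3a, GATA2 (chr10:40258691-40258751): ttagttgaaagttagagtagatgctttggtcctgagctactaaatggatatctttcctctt
Snora24, both lists (chr3:123508380-123508440): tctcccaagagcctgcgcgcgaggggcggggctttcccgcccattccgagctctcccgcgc
In the windows reaching 100 bp to either side of the summit, GC was 42.8% at the GATA2 summits of both Rnu2-10 and Rnu3a, 41.3% at the 9aa-Ins summit of Rnu2-10 and 64.7% at the summit of Snora24. The median over GATA2 peaks was 48.0% for genes outside other genes, 45.3% for own-promoter genes inside a gene, 64.7% for genes inside a host and 58.2% for all GATA2 peaks. Single genes departed from their group, with 63.7% at Scarna17, 63.2% at Rnu7, 61.2% at Rnu3b2, 44.8% at Snord42b and 47.8% at Snord60 for the highest GATA2 summit.

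The 17 genes inside a host had lower peaks, and these sat at the start of the host. Their highest GATA2 pileups ranged from 11 to 27 reads (median 14), and the summit lay before the small RNA gene in 17 of 17, by 84 to 824 bp. From the nearest annotated start of the host the summit was at a median absolute distance of 72 bp (6 to 844 bp). All 17 were among the 79 genes whose host start was within 1 kb, and 0 of the 60 genes further from a host start had a peak of either list (0%, up to 6.02%). Of those 79, 21.5% (13.9 to 31.8%) thus had a GATA2 summit, and 5 had a 9aa-Ins summit (6.33%, 2.73 to 14%). For protein-coding genes as a whole the shares were 21.7% (GATA2) and 5.02% (9aa-Ins), with summits inside the gene counted as well as those within 1 kb. Within 1 kb of protein-coding starts they were 15.9% and 4%. The intervals of the 79 genes included both pairs of values, so no departure from the background was seen.

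With peaks of both 9aa-Ins and GATA2 were Snord49a and Snord49b, box C/D genes in introns of 2410006H16Rik on chromosome 11 that share 1 peak (22 and 23 reads, ratio 1.05, 0.557 to 1.97), Snora24 in the noncoding host Snhg8 on chromosome 3 (27 and 11 reads, ratio 0.407, 0.182 to 0.849), Snora3 in Rpl27a on chromosome 7 (11 and 10 reads, ratio 0.909, 0.346 to 2.36) and Snord2 in Eif4a2 on chromosome 16 (11 and 15 reads, ratio 1.36, 0.585 to 3.28). Only at Snora24 did the interval exclude equality, and its summit was at the same base in both lists. The others had pileups that could not be told apart between the constructs at this depth.

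With GATA2 alone, the highest was Snord60 in Rab26os on chromosome 17, at 23 reads (14.6 to 34.5). Snora64 in Rps2 and Snora78 in Snhg9, on opposite strands of chromosome 17, shared 1 peak of 19 reads, whose summit was at −115 bp from the nearest start of Rps2 and at 17 bp from that of Snhg9, each along its own strand. Snora9 in Snhg15 and Snord45c in Rabggtb each had 17 reads, and Snora16a in Snhg12 had 14. Lower still were Snora26 in Dancr (13 reads), Scarna13 in Snhg10 and Snord68 in Rpl13 (12 reads each), and Snora21 in Rpl23 and Snord42b in Rpl23a (11 reads each). With pileups this near the lowest of the list, the absence of a 9aa-Ins peak rests on few reads.

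Counted at the hosts rather than at the small RNA, occupancy was more frequent. Of 90 host genes of the snoRNAs and scaRNAs outside the own-promoter families, 44 had a GATA2 summit within 1 kb of the gene start (48.9%, 38.8 to 59.0%) and 20 a 9aa-Ins summit (22.2%, 14.9 to 31.8%). Over all protein-coding genes these shares were 15.9% and 4%, and over the 67 protein-coding hosts 41.8% and 22.4%. A start with C followed by 4 pyrimidines, the beginning of a 5′ terminal oligopyrimidine tract, was annotated at 5 of 67 protein-coding hosts, at 0 of 8 protein-coding hosts of the genes with a peak and at 2.33% of all protein-coding starts.

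Within 100 bp of the summit, GATA motifs were found in a lower share of these GATA2 peaks than of all GATA2 peaks. WGATAR, the GATA factor motif, is GATA with A or T before it and A or G after it, and was searched on both strands up to 100 bp from each summit. It was present in 5 of 36 GATA2 peaks (13.9%, 6.08 to 28.7%), beside 30.3% of all GATA2 peaks, and in 2 of 19 9aa-Ins peaks (10.5%, 2.94 to 31.4%), beside 12.1% of all 9aa-Ins peaks. Up to 200 bp from the summit the GATA2 shares were closer, at 38.9% and 43.2%. Of the 5 GATA2 peaks, 3 were at own-promoter genes and 2 at host genes. Capitals mark the motif for 4 of these peaks, in 30 bases of the + strand of the genome.
Rnu5g (chr9:65201653-65201682): gttagacaccctAGATAAagcagatttaaa
Rnu3b1 (chr11:87443644-87443673): caaagtgaagtaCTATCTgggccgtgaaac
Scarna13 (chr12:105031338-105031367): agactgcagattAGATAGtgggctgcggag
Snora21 (chr11:97782216-97782245): cccccatcttctCTATCTccggccccggga
At Rnu5g and Rnu3b1 the motif stood past the end of the RNA, on the same side as the summit.

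Genes for the machinery of these RNAs were read from lists by a summit within 1 kb of the gene start, beside 15.9% (GATA2) and 4% (9aa-Ins) of protein-coding starts. For transcription of snRNA genes, 6 of 15 genes had a GATA2 summit and 4 a 9aa-Ins summit. They included Zfp143, an activator of snRNA promoters (29 and 17 reads), and Snapc5, a subunit of the complex that binds the proximal sequence element (21 and 17 reads). For Integrator, which cleaves snRNA transcripts near the 3′ box, 8 of 14 had a GATA2 summit and 2 a 9aa-Ins summit, which were Ints7 (25 and 16 reads) and Ints6 (22 and 13 reads).

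The particle proteins had fewer. Among snoRNA particle proteins and their assembly factors 4 of 16 had a GATA2 summit and 1 a 9aa-Ins summit, at Nop56, a core protein of box C/D particles (13 and 13 reads), while Dkc1, the pseudouridine synthase of box H/ACA particles, had 20 reads with GATA2 alone. Among Cajal body and snRNP assembly genes the counts were 4 of 16 and 0 of 16. Of 9 other small RNA genes, such as those for the 7SK, 7SL, RNase P and telomerase RNAs, 3 had a GATA2 summit and 1 a 9aa-Ins summit, at Rn7s2 (13 and 13 reads). These lists are short, and their counts are given as a description.

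Other classes with short transcripts give the scale. Annotated snRNA, snoRNA and scaRNA genes with other symbols had a GATA2 summit within 1 kb in 49 of 2770 (1.77%) and miRNA genes in 74 of 2202 (3.36%). Of the 49, 28 also had a 9aa-Ins summit (57.1%), as had 34 of the 74 miRNA genes (45.9%, 35.1 to 57.2%), beside 54.8% of the 31 genes. Histone genes with Hist symbols had a 9aa-Ins summit at 54 of the 55 with a GATA2 summit (98.2%), and ribosomal protein genes at 7 of 27 (25.9%). The own-promoter small RNA genes stood at 11 of 12 (91.7%). The host-gene small RNA genes, at 5 of 17 (29.4%, 13.3 to 53.1%), were near the 22.4% of all annotated genes with a GATA2 summit.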

How the data were processed

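Libraries were anti-HA CUT&Tag of hi-77-/- cells with GATA2 or 9aa-Ins. Per the labels and the study's methods, the authors used Bowtie2 and mm10 for alignment, discarded duplicate and blacklisted reads, and called peaks with MACS3 at q 1e-06. Versions were not given in the sources used here. Each deposited list merges 2 replicates. The study's methods describe a merge of peaks from separate calls, whereas each list has a single background, so a pileup may count 1 library or both, which could not be settled from the list. The deposited score is an integer form of the −log10 q-value, and the deposited −log10 q-value was used only to filter. The deposited fold enrichment, a ratio, is the pileup plus 1 over the background plus 1, and 100% of values gave pileups within 0.01 of a whole number. Read totals were not analysed here, so depth is known only from the background. Columns of other samples numbered 0.

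Genes, identifiers of 1 symbol joined, came from GENCODE M21. A gene had a peak where a summit lay within 1000 bp of it, and a host was a longer gene on the same strand that contained it whole. Overlap was 1 bp or more. Words of 36 bases within 100 bp of each summit and gene start were looked up in the whole genome, and a peak was called repeated above 20%. Intervals were computed with scipy 1.17.1, in Python 3.11.15, and the functions were tested on simulated data. All small RNA genes outside other genes were named, and of the members inside a host those with a 9aa-Ins summit and the 10 highest by GATA2 fold enrichment. The other members and genes named for a list were added after their values were seen. The members, families and lists were chosen with earlier results of these data known. The values of 1 host gene and 1 sequence are not reported here.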

Additional observations from a re-analysis of the deposited data

How the results depend on the processing

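Of 45 alternative values, 36 stayed within 1.5 times the reported count, within the interval of the reported share or difference, or within the quartiles of the ratio. A distance of 2 kb gave 52 genes with a GATA2 and 29 with a 9aa-Ins summit. With the GATA2 list shortened to the length of the 9aa-Ins list, 84.6% of the GATA2-occupied genes also had a 9aa-Ins summit, beside 53.5% of all annotated genes near that shortened list, a share added after seeing the data. With protein-coding hosts only, the 9aa-Ins difference was 8.24 points. Own-promoter families against all others, chosen after seeing the data, differed by 53.6 points in the GATA2 and 57 points in the 9aa-Ins list. WGATAR was in 5.56% of the genes' GATA2 peaks within 50 bp, in 38.9% within 200 bp and in 36.1% anywhere in the peak, beside 18.3%, 43.2% and 41.3% of all GATA2 peaks. No difference changed sign. Without the genes in Tex14, also chosen after seeing the data, the share with both was 46.2% and the median ratio 0.877. The counts without the U6 genes, the pileup ranges of all distinct peaks and the count of each 9aa-Ins peak once were likewise chosen after seeing the data. No paired analysis was possible because the replicates were merged within a list, and leaving out a replicate was not run for the same reason. Depth limits most the host-gene members, whose pileups lie near the lowest of the lists.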
